A study of Mus musculus with 14 samples.

Results

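The genes described here are 57 genes of DNA replication, covering the loading and firing of the replicative helicase, the polymerases, the sliding clamp and strand joining, the supply of nucleotides, the copying of chromatin and entry into S phase. They were chosen by name from a list, and 56 of the 57 were rows of both deposited tables, out of 9474 genes in each. Orc1, a subunit of the origin recognition complex, was not analysed here. The tables came from 2 experiments on mouse macrophages of the C57BL/6 background, which addressed how IL4, a cytokine of type 2 immunity, changes macrophages. In culture, marrow monocytes were grown for 7 days with the macrophage growth factor CSF1 and with IL4 at 20 ng/mL (4 libraries) or with CSF1 and no IL4 (4 control libraries). Both culture groups received CSF1, for which the labels state 25 ng/mL in the growth protocol and the series' design states 20 ng/mL. In marrow, cells carrying F4/80, a surface protein of mouse macrophages, were sorted from mice transplanted 12 days earlier with cells of acute myeloid leukemia (AML) carrying an IL4 cDNA (3 libraries) or an empty control vector (3 control libraries), so both marrow groups came from leukemic mice. The labels name neither the AML line nor the number of animals or cultures, and they give no age, so p-values measure only how far these libraries of a group differ, a spread that may be technical.

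Before a cell divides, each origin of replication is marked by the origin recognition complex, and Cdc6 and Cdt1 place the ring of Mcm2 to Mcm7 proteins around the DNA. At the start of S phase this ring is turned into the active helicase, the polymerases copy both strands behind it, and Pcna holds them on the template. Many of these genes are targets of the E2F transcription factors, which are released when cyclin-dependent kinases inactivate the retinoblastoma protein, so their transcripts are abundant in dividing cells. Macrophages can divide in response to CSF1, and marrow holds many dividing precursors.

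The deposited values were on a log2 scale relative to each library's total, and whole reads could be recovered from them. Libraries held 518781 to 818703 recovered reads, and the median gene had 24 to 41 reads, so a gene with few reads carried wide counting error. Levels are given as RPM, the reads of a gene over the library's recovered reads times 1000000, and they are not compared between genes because the deposited values carry a constant per gene that could not be traced to gene length. All 56 genes had whole reads, and 41 of them averaged at least 10 reads per library in culture and 56 in marrow. In culture, both libraries numbered 4 stood apart from the others of their group. The chi-square per degree of freedom, over genes above a minimum of recovered reads, was 4.62 to 6.71 against them. Among the other pairs it was 1.41 to 2.25. The labelled cell type was checked with 10 macrophage marker genes, among them the F4/80 gene Adgre1 (listed under its older symbol Emr1) and Csf1r, the receptor for CSF1. Of these, 7 had recovered reads, and none of the 7 was at 0 in a whole group. The summed level of the 7 was 4090 to 4860 RPM with IL4 and 7580 to 8480 RPM in controls in culture. In marrow it was 290 to 602 RPM with IL4 and 584 to 782 RPM in controls. Neutrophil transcripts there (Ngp, S100a8 and S100a9, 3 of 11 listed) summed to 43600 to 54000 RPM with IL4 and 60200 to 68200 RPM in controls. Both sums leave out markers without recovered reads or not measured, so they do not give the share of either cell type. Gene by gene, by the limma test given below, 8 of the 10 macrophage markers fell in culture and 1 rose (Itgam). In marrow 5 fell (Cd68, Csf1r, Fcgr1, Lyz2 and Mpeg1), 1 rose (Mertk) and 4 did not pass. With each library centred on its median, Cd68 rose in culture and did not pass in marrow. No level was tested between the culture and marrow tables.

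With IL4 in culture the replication genes were lower. By limma, with p-values adjusted by the Benjamini-Hochberg method over all genes and a threshold of 0.05, 33 of the 56 fell, 0 rose and 23 did not pass. Of all 9474 genes, 40.5% passed, 32.6% lower and 7.96% higher with IL4. The unadjusted p was under 0.05 for 43 of the 56, and 52 had a negative log2 fold change (IL4 minus control). The median log2 fold change of the 56 genes was -1.16, against -0.36 over all genes. The largest falls were those of the thymidine kinase gene Tk1 (-3.57 ± 0.65, SE), the transcription factor gene E2f2 (-3.37 ± 0.37), the fork protein gene Clspn (-2.65 ± 0.47) and the helicase factor gene Mcm10 (-2.36 ± 0.47). These genes had 1 to 5 reads in each IL4 library, so the sizes of their falls rest on few reads. When each library was centred on its own median, 14 genes fell, 1 rose (Pcna), and 41 did not pass, with a median of -0.80, while of all genes 27.1% then passed, 12.7% lower and 14.4% higher. The 56 genes together took 0.132%, 0.137%, 0.144% and 0.185% of reads in IL4 libraries 1 to 4, against 0.293%, 0.332%, 0.327% and 0.174% in controls 1 to 4.

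The controls in culture were not alike. Averaged over the 56 genes, the log2 value minus the gene's mean over the experiment was -0.84, -0.66, -0.58 and -0.35 in IL4 libraries 1 to 4, and 0.74, 0.97, 0.93 and -0.21 in controls 1 to 4. Controls 1 to 3 were therefore far above all IL4 libraries, and control 4 lay just above IL4 library 4. Control 4 was the lowest of the 4 controls in 47 of the 56 genes (83.9%), against 40.4% of all genes. The means of 16 genes of cell division were also lower in control 4 than in controls 1 to 3, with values of -1.74, -1.63, -1.57 and -0.65 in IL4 libraries 1 to 4 and 1.80, 1.85, 2.01 and -0.07 in controls 1 to 4. Among them Mki67, the gene of the proliferation antigen Ki-67, stood at 42.4, 55.4, 74.6 and 118 RPM with IL4 and at 763, 784, 856 and 221 RPM in controls, and all 16 fell. Without control 4, 43 replication genes fell and 1 rose, with a median of -1.46, while of all genes 42.3% passed, 33.8% lower and 8.43% higher, with a median of -0.40. Without both libraries numbered 4, 41 fell and 1 rose, with a median of -1.59, while of all genes 43.4% passed, 34.6% lower and 8.79% higher, again with a median of -0.40. All 4 IL4 libraries were below all 4 controls in 19 of the 56 genes (33.9%), near the 30.2% of all genes, and above them in 0 (7.49% of all genes). What set control 4 apart was not tested.

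**Figure D1:**
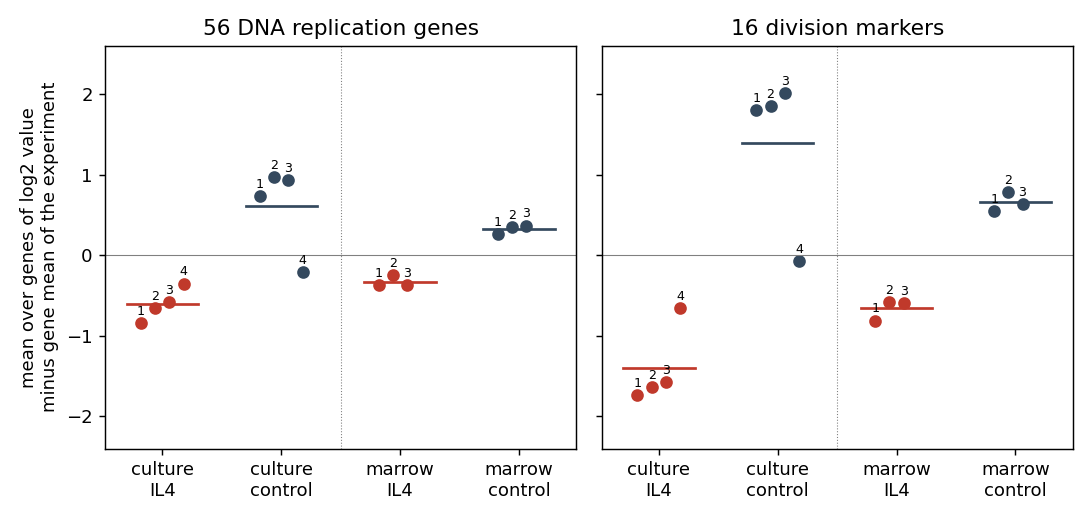
Mean over genes of the log2 value minus the gene's mean over its experiment (y axis), for the 56 DNA replication genes (left) and 16 division markers (right), with 1 point per library, its replicate number above it and a bar at each group mean. In culture, control 4 (-0.21 on the left) sits near the IL4 libraries and away from controls 1 to 3 (0.74 to 0.97), while the marrow groups (-0.37 to -0.24 with IL4, 0.27 to 0.37 in controls) are tight.

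In marrow, F4/80-positive cells from mice with IL4-expressing AML also held less replication transcript. Of the 56 genes 30 fell, 0 rose and 26 did not pass, while 18.2% of all genes passed, 11.5% lower and 6.70% higher with IL4. The median log2 fold change was -0.65, against -0.06 over all genes, and the unadjusted p was under 0.05 for 39 genes. After centring on the library median 24 fell and 0 rose, with a median of -0.54, while of all genes 18.4% passed, 8.92% lower and 9.45% higher. The replication genes took 0.626%, 0.677% and 0.608% of reads in IL4 libraries 1 to 3 and 0.971%, 1.01% and 1.01% in controls 1 to 3. Replicates were close: the mean deviation over the 56 genes was -0.37, -0.24 and -0.37 with IL4 and 0.27, 0.35 and 0.37 in controls. All 3 IL4 libraries were below all 3 controls in 40 of the 56 genes (71.4%, against 22.1% of all genes) and above them in 1, Dut (1.79%, against 15.5%). Of the 16 division genes 15 fell, and Mki67 stood at 652, 865 and 700 RPM with IL4 and at 1990, 2350 and 2410 RPM in controls.

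The marrow groups also differed in markers of other cells, and in these bulk libraries fewer cells of a type and less RNA per cell cannot be told apart. Summed over the genes measured, monocyte markers (4 of 6 listed) held 238 to 518 RPM with IL4 and 4300 to 5920 RPM in controls. Erythroid markers (Car2 and Tfrc, 2 of 11 listed) held 194 to 270 RPM with IL4 and 1480 to 1550 RPM in controls, and B cell markers (3 of 9) held 46.2 to 82.8 RPM with IL4 and 161 to 181 RPM in controls. Il7r, the only T cell marker measured of 5, held 3.69 to 5.78 RPM with IL4 and 37.3 to 54.6 RPM in controls. Higher with IL4 were the summed progenitor and blast markers (2 of 8, 214 to 236 RPM with IL4 and 68.1 to 92.7 RPM in controls), eosinophil markers (3 of 6, 386 to 518 RPM with IL4 and 137 to 185 RPM in controls) and stromal and endothelial markers (4 of 5, 140 to 232 RPM with IL4 and 34.1 to 51.6 RPM in controls). Of the progenitor and blast pair, Cd34 and Gata2, only Gata2 passed in marrow. In culture, the summed monocyte list held 3530 to 4710 RPM with IL4 and 531 to 1110 RPM in controls, but of its 4 genes only the fibronectin gene Fn1 rose and Ccr2, F13a1 and Vcan fell. The summed stromal and endothelial list held 88.9 to 216 RPM with IL4 and 745 to 1840 RPM in controls, where Col1a1, Col1a2 and Sparc fell and the endothelial gene Pecam1 rose. Eosinophil markers held 622 to 2180 RPM with IL4 and 1.22 to 14.1 RPM in controls, with a rise of Ear2, while Prg2 was at 0 in all IL4 libraries. Car2 and Tfrc rose, together at 456 to 1270 RPM with IL4 and 65.2 to 174 RPM in controls, and so did Il7r, at 598 to 833 RPM with IL4 and 100 to 446 RPM in controls. B cell markers held 247 to 312 RPM with IL4 and 164 to 224 RPM in controls, where Blnk and Cd22 rose and Cd79b fell. Progenitor and blast markers held 4.66 to 13.2 RPM with IL4 and 14.7 to 37.3 RPM in controls. Of that pair Cd34 fell, and Gata2 did not pass (log2 1.08). The culture libraries held 0 to 3.27 RPM of the neutrophil markers with IL4 and 4.66 to 58.5 RPM in controls. The part of these cells in the replication genes' changes was not tested.

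**Figure D2:**
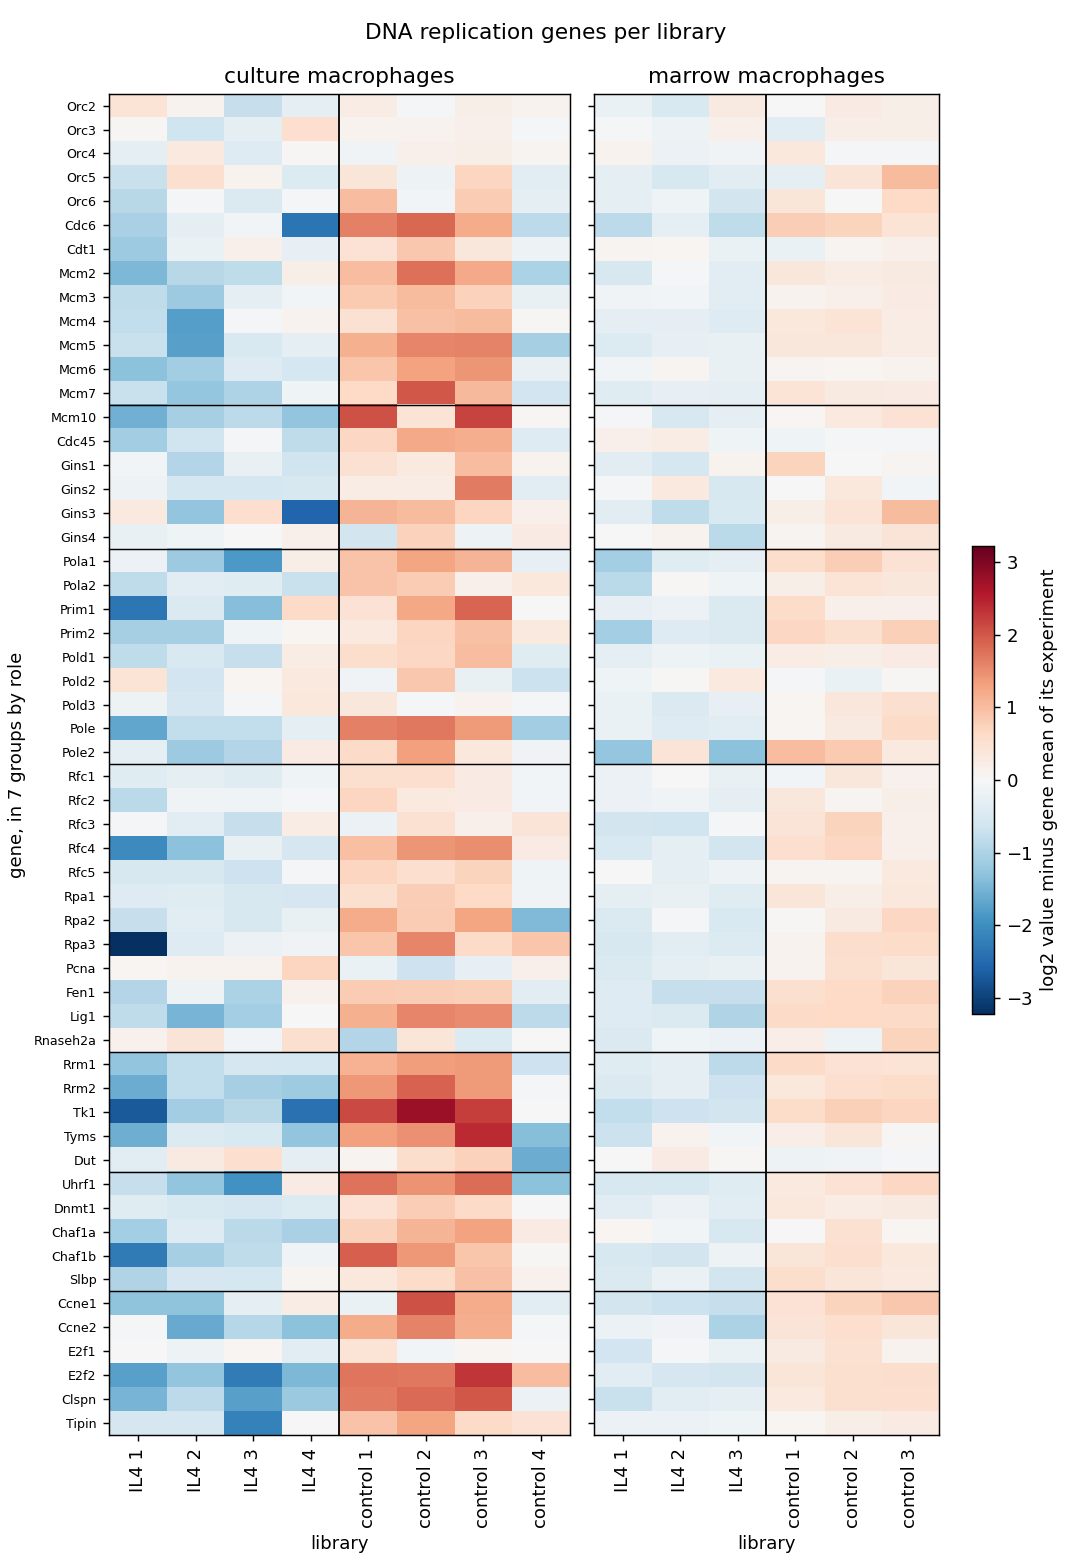
Log2 value of each of the 56 genes in each library minus that gene's mean over its experiment (colour, blue below and red above), with the 8 culture libraries left and the 6 marrow libraries right, IL4 libraries before controls, and lines between the 7 role groups. Controls 1 to 3 in culture are red in most rows and control 4 is pale or blue, while Pcna, Pold2 and Rnaseh2a do not follow this pattern in culture. In marrow the IL4 libraries are lower for Pcna and slightly higher for Dut.

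For the counts by role that follow, of all genes 32.6% fell in culture and 11.5% in marrow. After centring on the library median these shares were 12.7% and 8.92%. Helicase loading came first among the roles. Of its 13 measured genes 6 fell in culture and 6 in marrow, and 0 rose in either. After centring Mcm3 and Mcm6 alone passed in culture, near the share of all genes. Cdc6, Mcm4, Mcm5 and Mcm7 did not pass there (limma adjusted p = 0.0883 to 0.108), and 5 of the 6 passed in marrow, without Orc6. Mcm6 (chr1:128331590-128359664 on mm10, minus strand), a subunit of the helicase ring, had the smallest p of them in culture. It stood at 34.5, 39.6, 65.2 and 58.9 RPM with IL4 and at 165, 215, 234 and 74.6 RPM in controls. Every IL4 library was below every control, control 4 included, and Mcm6 fell by 1.70 on the log2 scale, 3.24-fold lower (SE 0.35, limma adjusted p = 0.00407). Its marrow values were 404, 453 and 365 RPM with IL4 and 451, 443 and 458 RPM in controls. These overlapped, and the log2 fold change was -0.15 ± 0.13 (adjusted p = 0.447).

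In the other ring subunits in culture control 4 lay inside the IL4 range. Mcm2 stood at 7.96, 11.9, 12.4 and 26.2 RPM with IL4 and at 46.4, 79.3, 53.3 and 10.9 RPM in controls, with control 4 among the IL4 libraries, and did not pass (-1.48 ± 0.56, adjusted p = 0.0574). Mcm5 was alike, at 27.9, 13.2, 32.6 and 37.7 RPM with IL4 and at 104, 139, 141 and 21.7 RPM in controls, and passed narrowly (-1.62 ± 0.56, adjusted p = 0.0399). Without control 4 the log2 fold changes were -2.07 for Mcm2 (adjusted p = 0.00239) and -2.25 for Mcm5 (adjusted p = 0.000608). Mcm3 was less affected, with 30.5, 23.7, 43.5 and 50.8 RPM under IL4 and 98.9, 111, 91.1 and 46.6 RPM in controls. It fell by 1.19 (SE 0.30, adjusted p = 0.0108), with only control 4 inside the IL4 range. Mcm4 held 26.5, 13.2, 45.0 and 50.8 RPM with IL4 and 67.2, 89.8, 96.3 and 48.2 RPM in controls, and fell by 1.25 (SE 0.39, adjusted p = 0.0272). Mcm7 held 17.2, 11.9, 14 and 26.2 RPM with IL4 and 46.4, 116, 60.2 and 18.6 RPM in controls, and fell by 1.54 (SE 0.49, adjusted p = 0.0294). In both, control 4 was again the control inside the IL4 range.

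Log2 fold changes of the ring genes were nearer to 0 in marrow, with smaller standard errors, although a test of the difference between the experiments passed only for Mcm6 among them. Mcm2 held 242, 326 and 274 RPM with IL4 and 439, 407 and 419 RPM in controls (-0.60 ± 0.15, adjusted p = 0.0211). Mcm5 held 303, 341 and 348 RPM with IL4 and 530, 534 and 487 RPM in controls (-0.65 ± 0.12, adjusted p = 0.00547). Neither gene's groups overlapped. Mcm4 held 185, 185 and 171 RPM with IL4 and 285, 307 and 270 RPM in controls (-0.67 ± 0.12, adjusted p = 0.00516), and Mcm7 held 205, 224 and 218 RPM with IL4 and 369, 329 and 323 RPM in controls (-0.66 ± 0.14, adjusted p = 0.0129). Mcm3 did not pass although its groups did not overlap, with 236, 239 and 200 RPM under IL4 and 273, 286 and 305 RPM in controls (-0.36 ± 0.12, adjusted p = 0.0735). Of the 6 ring subunits, then, Mcm2, Mcm4, Mcm5 and Mcm7 passed in marrow, and Mcm3, Mcm4, Mcm5, Mcm6 and Mcm7 in culture.

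**Figure D3:**
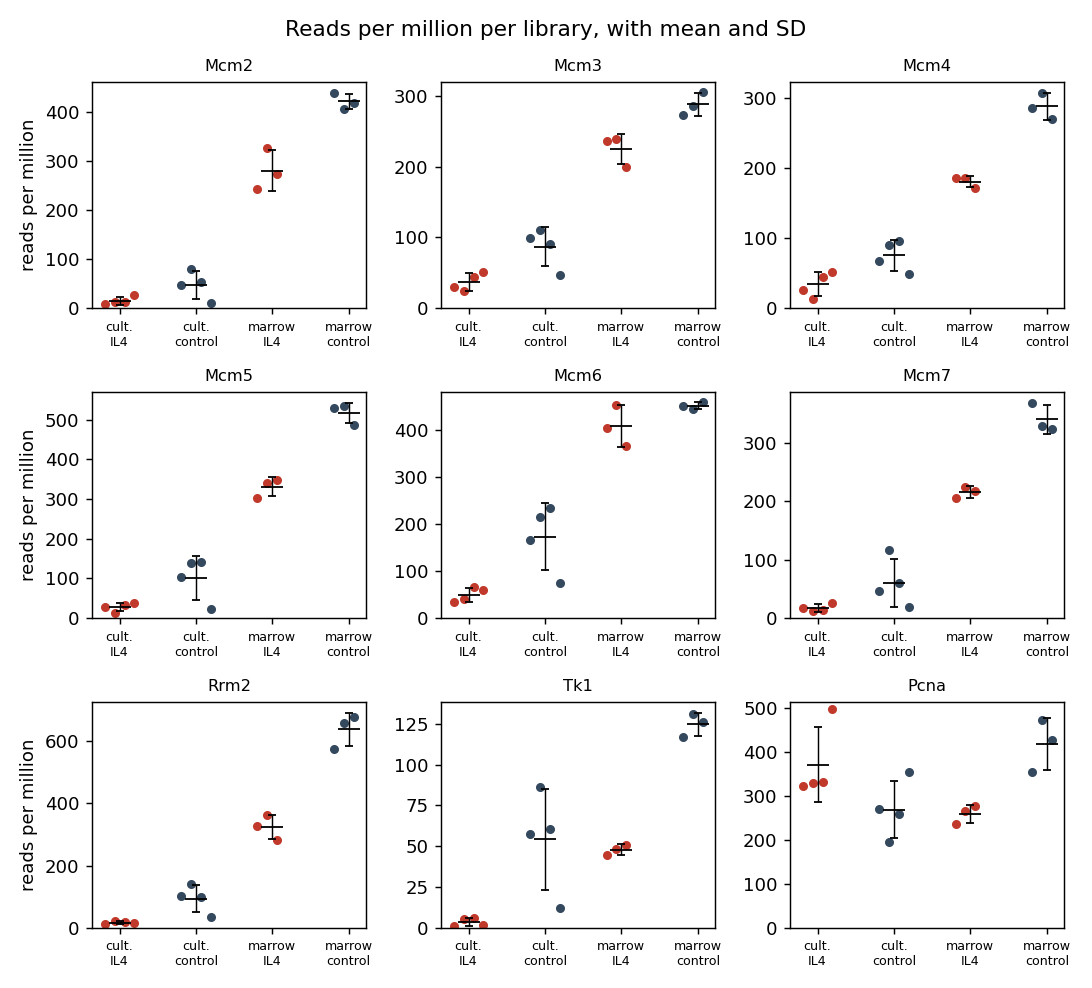
RPM in each library (points) with the group mean and SD (bars) for the 6 subunits of the Mcm ring, Rrm2, Tk1 and Pcna, with IL4 and control groups of culture and marrow from left to right and a y axis from 0 in each panel. Control 4 is the low control point in culture in every panel but that of Pcna, whose IL4 points (322 to 498) lie among and above its culture controls (194 to 353).

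Cdc6, which loads the ring, was a low transcript in culture. It had 1, 2, 2 and 0 reads with IL4 and 10, 8, 5 and 1 in controls, and the 0 of IL4 library 4 allows up to 4.91 RPM (3 reads, counting error only). It fell by 1.91 (SE 0.67, adjusted p = 0.0435), or by 1.26 with 2 reads added before the log in place of 0.5. In marrow Cdc6 held 51.7, 75.2 and 52.2 RPM with IL4 and 161, 152 and 127 RPM in controls. The groups stood well apart, and it fell by 1.31, 2.47-fold lower (SE 0.20, adjusted p = 0.00224), the smallest p of the loading genes there. Its partner Cdt1 did not pass in culture (-0.76, adjusted p = 0.0633) or in marrow (-0.03, adjusted p = 0.924). Of the origin recognition subunits Orc2, Orc3, Orc4 and Orc5, none passed, with log2 fold changes of -0.26 to -0.17 in culture (0.10 to 0.20 after centring) and -0.77 to -0.03 in marrow. Orc6 fell in marrow (-0.69 ± 0.19, adjusted p = 0.0358) and not in culture (-0.73 ± 0.31, adjusted p = 0.0874).

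The promoters of the members shared letters that the choice by name did not use. RefSeq promoter windows of 300 bases (250 before a start and 50 after it, build GRCm38.p6) were held for 47 of the 56 genes. The E2F letters TTCCCGC, their variant TTCGCGC, their variant TTGCCGC or their variant TTGGCGC stood on either strand in 29 of these (61.7%), against 20.7% of 7322 genes in the deposited tables with a window and 10.9% of 27025 genes in all. With a further T before them they stood in 38.3% of the members, 5.05% of the genes in the tables and 2.6% of all. CCAAT, the letters of the factor NF-Y, stood in 61.7% of the members, 43.2% of the genes in the tables and 41.1% of all. The median GC content of the windows was 61.3% for the members, 61.3% for the genes in the tables and 52.7% for all. Below are the 200 bases before and 30 after the start, with the E2F letters in capitals, for Mcm5, Rrm1, Mcm6, Chaf1a and Mcm10. Before centring Mcm5 and Rrm1 fell in both experiments, and the responses of Mcm6, Chaf1a and Mcm10 differed between the experiments. After centring Mcm5 did not pass in culture, and the difference passed for Mcm6 but not for Chaf1a or Mcm10.
Mcm5 promoter, chr8:75109309-75109538, plus strand: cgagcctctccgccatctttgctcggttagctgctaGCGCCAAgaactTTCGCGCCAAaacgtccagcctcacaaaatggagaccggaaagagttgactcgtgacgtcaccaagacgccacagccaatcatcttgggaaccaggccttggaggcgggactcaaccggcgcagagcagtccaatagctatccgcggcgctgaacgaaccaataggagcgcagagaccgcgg
Rrm1 promoter, chr7:102441495-102441724, plus strand: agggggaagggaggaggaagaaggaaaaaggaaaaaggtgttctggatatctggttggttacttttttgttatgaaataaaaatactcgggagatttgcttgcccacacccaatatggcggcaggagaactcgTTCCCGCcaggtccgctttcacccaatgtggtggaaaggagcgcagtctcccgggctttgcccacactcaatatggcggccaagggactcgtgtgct
Mcm6 promoter, chr1:128359676-128359905, minus strand: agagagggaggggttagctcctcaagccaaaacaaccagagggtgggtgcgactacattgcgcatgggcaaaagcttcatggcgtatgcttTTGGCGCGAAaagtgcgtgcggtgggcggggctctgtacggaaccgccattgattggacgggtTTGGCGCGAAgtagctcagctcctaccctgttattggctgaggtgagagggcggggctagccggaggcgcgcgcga
Chaf1a promoter, chr17:56040216-56040445, plus strand: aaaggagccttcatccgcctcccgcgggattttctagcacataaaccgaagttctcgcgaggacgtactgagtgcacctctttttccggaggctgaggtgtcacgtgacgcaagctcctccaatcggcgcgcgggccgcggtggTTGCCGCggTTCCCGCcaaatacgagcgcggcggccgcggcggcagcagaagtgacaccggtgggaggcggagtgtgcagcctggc
Mcm10 promoter, chr2:5012762-5012991, minus strand: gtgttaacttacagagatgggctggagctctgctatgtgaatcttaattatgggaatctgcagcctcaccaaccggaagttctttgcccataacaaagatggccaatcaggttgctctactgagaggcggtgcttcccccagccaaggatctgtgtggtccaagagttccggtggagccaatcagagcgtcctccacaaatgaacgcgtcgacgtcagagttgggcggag
The Mcm6 run held 4 matches in 2 overlapping pairs, TTGGCGC on the coding strand and TTCGCGC on the other, and 1 more lay beyond it in the 300 bases. The Mcm5 run held 3, of which the last 2 overlapped, the Chaf1a run 2, the Rrm1 run 1 and the Mcm10 run 0. A match is a description of letters, and no binding was measured.

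Origin firing, the step at which Cdc45 and the 4-subunit GINS complex join the ring, had a median log2 fold change of -1.14 in culture and -0.52 in marrow. Of 6 genes 2 fell in culture (Mcm10 alone after centring), 0 fell in marrow by limma (2 had an unadjusted p under 0.05), and 0 rose in either. The culture counts were near the shares of all genes that fell, 32.6% before centring and 12.7% after it. Mcm10, which helps to activate the helicase, held 2.65, 3.96, 4.66 and 3.27 RPM with IL4 and 40.3, 12.3, 43.0 and 9.32 RPM in controls. All controls were above all IL4 libraries, but controls 2 and 4 were far below controls 1 and 3, and Mcm10 fell 5.12-fold (log2 -2.36 ± 0.47, adjusted p = 0.00355). Its IL4 libraries had 2, 3, 3 and 2 reads, so the size of this fall depends on the 0.5 reads added before the log. In marrow it held 68.3, 48.2 and 57.3 RPM with IL4 and 73.2, 87.6 and 97.1 RPM in controls and did not pass (-0.57 ± 0.19, adjusted p = 0.0643), although the groups did not overlap. Cdc45 fell in culture, with 2.65, 3.96, 6.21 and 3.27 RPM under IL4 and 11.0, 15.9, 15.5 and 4.66 RPM in controls (-1.32 ± 0.44, adjusted p = 0.0372), and control 4 lay inside the IL4 range. Its marrow values overlapped, at 131, 137 and 106 RPM with IL4 and 106, 112 and 112 RPM in controls (0.17 ± 0.18, adjusted p = 0.569). The GINS genes Gins1 to Gins4 did not pass in either experiment, with log2 fold changes of -1.48 to -0.12 in culture and -1.10 to -0.17 in marrow.

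Among the 9 genes of polymerases and primase 6 fell in culture and 5 in marrow. Prim2, the large subunit of the primase that lays the RNA primer, had the smallest p in both. It held 7.96, 7.91, 15.5 and 18 RPM with IL4 and 22, 28.2, 34.4 and 21.7 RPM in controls of the culture, without overlap (-1.12 ± 0.28, adjusted p = 0.01). The marrow values were 20.3, 32.8 and 31.8 RPM with IL4 and 70.0, 63.3 and 75.9 RPM in controls, with the groups far apart (-1.30 ± 0.19, adjusted p = 0.00175). Pola1, the catalytic subunit of polymerase alpha, fell in culture (-1.51 ± 0.46) and in marrow (-1.20 ± 0.22), as did the primase subunit gene Prim1 (-1.78 in culture, -0.60 in marrow) and the polymerase delta gene Pold1 (-0.92 in culture, -0.47 in marrow). Pole, the catalytic subunit of polymerase epsilon, fell in culture (-1.79 ± 0.61) and did not pass in marrow (-0.65, adjusted p = 0.0637). Pold2, an accessory subunit of polymerase delta, held 14.6, 6.59, 10.9 and 13.1 RPM with IL4 and 9.77, 19.4, 8.60 and 6.21 RPM in controls of the culture. The groups overlapped widely, and its log2 fold change of 0.10 (adjusted p = 0.837) was -0.11 without control 4. In marrow Pold2 stood at 48.0, 54.0 and 66.2 RPM with IL4 and 50.4, 45.4 and 54.6 RPM in controls, again overlapping (0.15, adjusted p = 0.606). After centring in culture 0 of the 9 genes passed by limma (5 had an unadjusted p under 0.05), with a median of -0.76. In marrow 2 then passed, Pola1 and Prim2, while Prim1 (adjusted p = 0.0840), Pold1 (0.0787) and Pold3 (0.0774) did not.

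Pcna set itself apart in the group of the clamp, clamp loader, single-strand binding protein and strand joining, where 7 of 12 genes fell in culture and 7 in marrow. After centring the 7 in marrow passed, and in culture only Rfc4 and Rpa1 fell, while Fen1, Lig1, Rfc1, Rfc5 and Rpa3 lost the call. The culture count was then near the 12.7% of all genes that fell. Pcna (chr2:132249162-132253314, minus strand), the sliding clamp, held 322, 330, 331 and 498 RPM with IL4 and 270, 194, 258 and 353 RPM in controls of the culture. IL4 library 4 was the highest and control 4 the highest control, so both libraries numbered 4 lay above the rest of their group. Its log2 fold change was 0.48 ± 0.20 (adjusted p = 0.0747), and 0.84 (adjusted p = 0.0150) after centring on the library median. Without control 4 it was 0.62 (adjusted p = 0.0227). In marrow Pcna fell, with 236, 266 and 276 RPM under IL4 and 355, 472 and 426 RPM in controls and no overlap (-0.68 ± 0.14, adjusted p = 0.00981). The mouse annotation holds 2 processed pseudogenes of Pcna, so how its reads were assigned is uncertain. Pseudogenes were looked up only for Pcna and Tyms, so the same may hold for other genes.

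Rpa1, the large subunit of the protein that coats single-stranded DNA, had the smallest p of this group in culture. It held 51.7, 52.7, 48.1 and 47.5 RPM with IL4 and 101, 122, 110 and 65.2 RPM in controls (-0.94 ± 0.18, adjusted p = 0.00286), and even control 4 was above all IL4 libraries. In marrow it fell as well (-0.62 ± 0.12, adjusted p = 0.00601). Fen1, the nuclease that trims the flaps of lagging-strand fragments, led in marrow, with 86.8, 67.5 and 68.8 RPM under IL4 and 164, 180 and 193 RPM in controls, 2.41-fold lower (log2 -1.27 ± 0.15, adjusted p = 0.000746). Lig1, the ligase that seals them, fell by 1.25 in marrow (SE 0.16) and by 1.70 in culture (SE 0.52). The clamp loader gene Rfc4 fell in both (-2.08 ± 0.42 in culture, -0.90 ± 0.18 in marrow), and Rfc2 in neither. Rnaseh2a, the catalytic subunit of the enzyme that removes RNA from DNA, stood at 23.9, 29.0, 20.2 and 31.1 RPM with IL4 and at 11.0, 28.2, 15.5 and 21.7 RPM in controls of the culture. The groups overlapped, and the log2 fold change of 0.50 ± 0.30 did not pass (adjusted p = 0.199), nor did that of -0.53 in marrow (adjusted p = 0.207).

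The nucleotide supply genes held the largest fall in culture. Of 5 genes 4 fell in culture (3 after centring, without Tyms) and 3 in marrow. Rrm2 (chr12:24708241-24714146, plus strand), the small subunit of the ribonucleotide reductase that makes deoxynucleotides, held 11.9, 21.1, 17.1 and 16.4 RPM with IL4 and 101, 141, 98.0 and 35.7 RPM in controls. Control 4 was the lowest control and still above all IL4 libraries, and Rrm2 fell 4.96-fold (log2 -2.31 ± 0.36, adjusted p = 0.000914). Marrow values of Rrm2 were 327, 362 and 283 RPM with IL4 and 576, 660 and 678 RPM in controls, 1.98-fold lower (-0.98 ± 0.14, adjusted p = 0.00154). Its partner Rrm1 fell in culture (-1.59 ± 0.43, adjusted p = 0.0144) and in marrow (-1.03 ± 0.18, adjusted p = 0.00507).

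Tk1 (chr11:117815526-117826092, minus strand), the thymidine kinase of the salvage pathway, had 1, 4, 4 and 1 reads with IL4 and 47, 49, 35 and 8 in controls of the culture. The groups did not overlap, and Tk1 fell by 3.57 (SE 0.65, adjusted p = 0.00217), or by 2.95 with 2 reads added before the log. In marrow it held 44.3, 48.2 and 50.9 RPM with IL4 and 117, 131 and 126 RPM in controls, with little spread in either group (-1.37 ± 0.23, adjusted p = 0.00396). Tyms, the thymidylate synthase gene, which has 1 annotated processed pseudogene, fell in culture (-1.91 ± 0.66) and did not pass in marrow (-0.45, adjusted p = 0.160). Dut, which destroys dUTP before it enters DNA, did not follow. It held 15.9, 25.1, 29.5 and 16.4 RPM with IL4 and 22, 29.9, 34.4 and 6.21 RPM in controls of the culture, where the log2 fold change was 0.10 (adjusted p = 0.882), and -0.41 without control 4. In marrow it held 170, 200 and 171 RPM with IL4 and 148, 156 and 161 RPM in controls. All 3 IL4 libraries were above all 3 controls, but Dut did not pass (0.21 ± 0.15, adjusted p = 0.372).

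Genes that copy chromatin and its methylation fell in both experiments, 4 of 5 in each (3 in culture after centring, without Slbp). Dnmt1 (chr9:20907209-20959888, minus strand), which copies DNA methylation to the new strand, held 131, 121, 116 and 128 RPM with IL4 and 239, 298, 266 and 172 RPM in controls of the culture, without overlap (-0.93 ± 0.17, adjusted p = 0.00181). Its marrow values were 412, 449 and 405 RPM with IL4 and 651, 605 and 634 RPM in controls (-0.58 ± 0.11, adjusted p = 0.00732). Its IL4 libraries lay close together in both experiments. Uhrf1, which brings Dnmt1 to half-methylated sites, held 181, 181 and 199 RPM with IL4 and 324, 360 and 416 RPM in controls of the marrow (-0.97 ± 0.14, adjusted p = 0.00199). In culture it held 11.9, 7.91, 4.66 and 24.6 RPM with IL4 and 70.8, 56.4, 72.2 and 7.77 RPM in controls. Control 4 lay inside the IL4 range, and Uhrf1 did not pass (-1.85 ± 0.70, adjusted p = 0.0561), while without control 4 it was -2.59 (adjusted p = 0.00181). Chaf1b, a subunit of the factor that places histones on new DNA, fell in culture (-2.14 ± 0.50) and in marrow (-0.85 ± 0.19), as did Slbp, which binds the histone messages (-1.0 in culture, -0.85 in marrow).

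In the group of S phase entry and the fork checkpoint 4 of 6 genes fell in culture (3 after centring, without Tipin) and 5 in marrow (3 after centring, without Ccne2 and E2f1). E2f2 (chr4:136172394-136196057, plus strand), an activating E2F factor, had the smallest p of the group in both. It had 2, 3, 1 and 2 reads with IL4 and 30, 20, 32 and 14 in controls of the culture, and every control was above every IL4 library (-3.37 ± 0.37, adjusted p = 0.000114, and -2.74 with 2 reads added). E2f2 in marrow held 251, 214 and 209 RPM with IL4 and 408, 453 and 469 RPM in controls, 1.98-fold lower (-0.98 ± 0.15, adjusted p = 0.00204). E2f1, another activating factor, held 47.7, 42.2, 49.7 and 37.7 RPM with IL4 and 64.7, 44.0, 49.9 and 48.2 RPM in controls of the culture. The groups overlapped, and its log2 fold change of -0.20 ± 0.15 (adjusted p = 0.294) turned to 0.16 after centring. In marrow E2f1 held 48.0, 69.4 and 63.7 RPM with IL4 and 89.5, 104 and 78.9 RPM in controls, and fell (-0.59 ± 0.17, adjusted p = 0.0437; 0.0686 after centring).

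The cyclin E genes, whose kinase drives entry into S phase, were low in culture. Ccne1 held 1.33, 1.32, 3.11 and 4.91 RPM with IL4 and 3.66, 19.4, 10.3 and 3.11 RPM in controls, which overlapped (-1.35 ± 0.60, adjusted p = 0.0981). Ccne2 held 9.28, 2.64, 4.66 and 3.27 RPM with IL4 and 23.2, 29.9, 22.3 and 9.32 RPM in controls, where control 4 barely exceeded the highest IL4 library (-1.96 ± 0.44, adjusted p = 0.00643). In marrow both fell without overlap. Ccne1 held 31.4, 28.9 and 28.0 RPM with IL4 and 65.1, 77.9 and 86.5 RPM in controls (-1.35 ± 0.21, adjusted p = 0.00242), and Ccne2 held 85, 88.7 and 47.1 RPM with IL4 and 129, 141 and 127 RPM in controls (-0.90 ± 0.25, adjusted p = 0.0369). Clspn, which links a stalled fork to the checkpoint kinase, fell in culture (-2.65 ± 0.47, adjusted p = 0.00176) and in marrow (-0.92 ± 0.18, adjusted p = 0.00685). In culture Clspn had 3, 5, 2 and 3 reads with IL4, so the size of its fall there rests on few reads. Tipin, which works with Clspn at the fork, fell in culture (-1.63 ± 0.46, adjusted p = 0.0176) and did not pass in marrow (-0.35, adjusted p = 0.181).

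**Figure D4:**
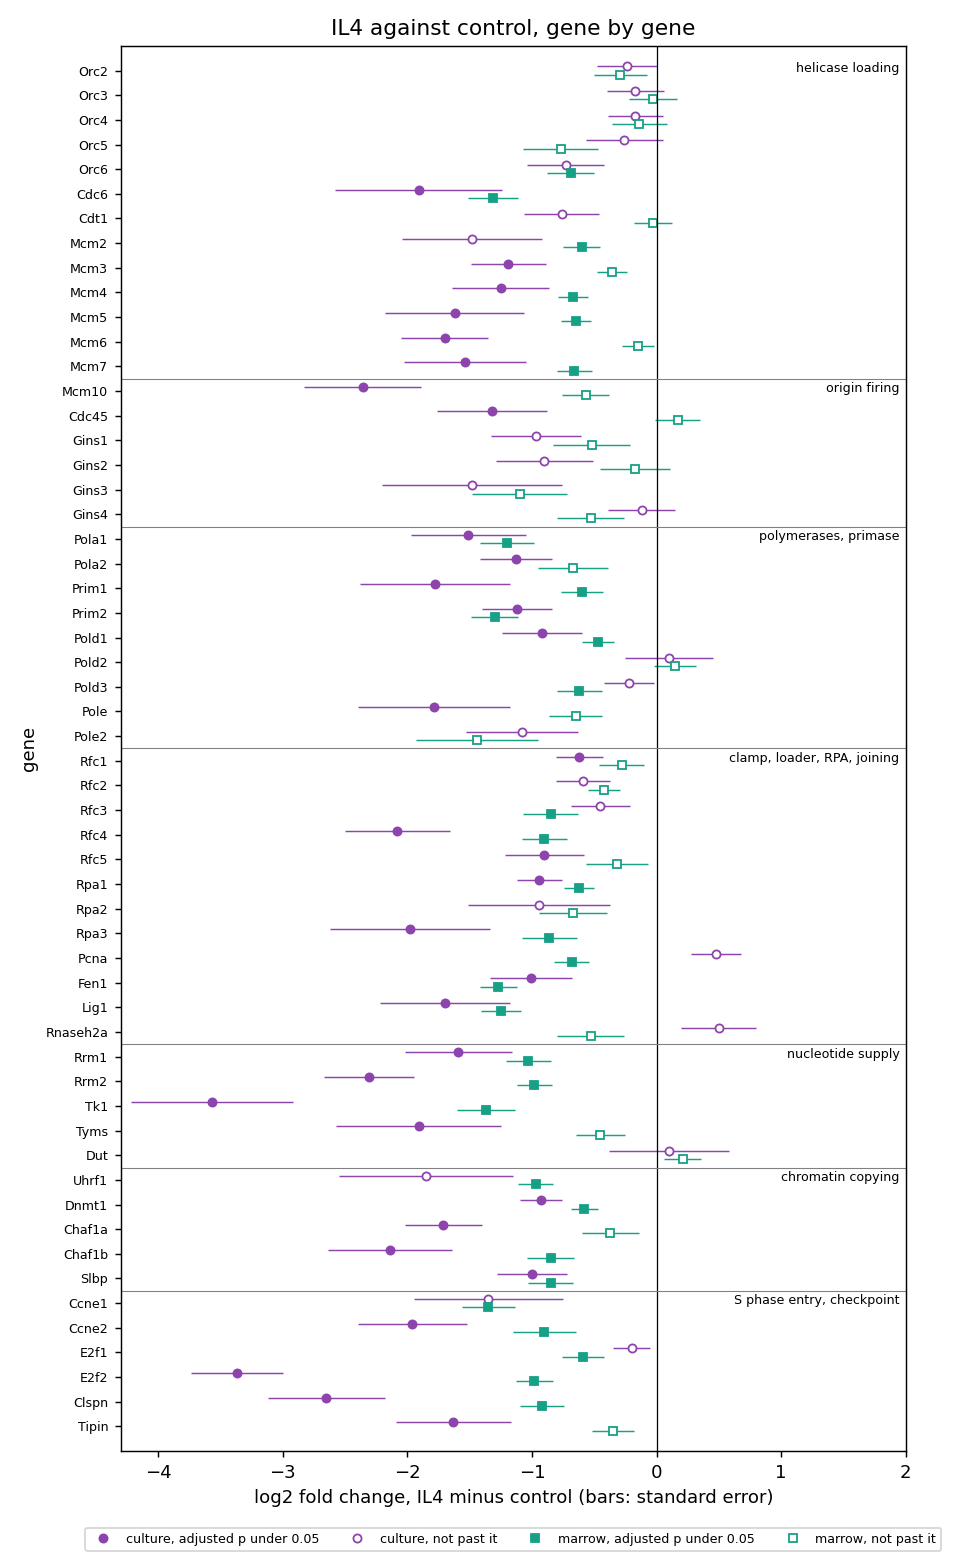
Log2 fold change, IL4 minus control, with its standard error (x axis) for each of the 56 genes in culture (circles) and marrow (squares), filled where the adjusted p was under 0.05, in 7 groups by role (y axis). Most points lie left of 0 in both experiments, the culture point lies farther left for 44 genes and has the wider bar for 52, and Pcna and Rnaseh2a lie right of 0 in culture and left of it in marrow.

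Set side by side, 22 genes fell in both experiments, out of 33 that fell in culture and 30 that fell in marrow, while 5.86% of all genes fell in both, and the experiments shared no libraries. These 22 are 66.7% of the genes that fell in culture and 73.3% of those that fell in marrow. For comparison, of all 56 genes 53.6% fell in marrow and 58.9% in culture. After centring on the library median, those that fell in both were Chaf1b, Clspn, Dnmt1, E2f2, Rfc4, Rpa1, Rrm1, Rrm2 and Tk1. Of all genes 12.7% then fell in culture and 8.92% in marrow, and the share that fell in both after centring was not computed. A further 11 passed in culture and not in marrow (Cdc45, Chaf1a, Mcm3, Mcm6, Mcm10, Pola2, Pole, Rfc1, Rfc5, Tipin and Tyms), and 8 passed in marrow and not in culture (Ccne1, E2f1, Mcm2, Orc6, Pcna, Pold3, Rfc3 and Uhrf1). The 15 that passed in neither were Cdt1, Dut, Gins1 to Gins4, Orc2 to Orc5, Pold2, Pole2, Rfc2, Rnaseh2a and Rpa2. Those counts do not test a difference, so the culture response minus the marrow response was tested over all 14 libraries, where 6 of the 56 genes passed, 5 with a negative difference and 1 with a positive one. Of all genes 23.1% passed, 16.6% negative and 6.45% positive. E2f2 fell further in culture (difference -2.38 ± 0.41, adjusted p = 0.00102), as did Mcm10 (-1.78 ± 0.61, adjusted p = 0.0467), Clspn (-1.73 ± 0.59, adjusted p = 0.0457), Mcm6 (-1.54 ± 0.45, adjusted p = 0.0244) and Chaf1a (-1.34 ± 0.39, adjusted p = 0.0242). In each culture IL4 library E2f2, Mcm10 and Clspn had 1 to 5 reads. Pcna differed the other way (1.16 ± 0.27, adjusted p = 0.00710). After centring 4 passed, E2f2 and Mcm6 with a negative difference (9.50% of all genes) and Pcna and Rnaseh2a (1.29, adjusted p = 0.0487) with a positive one (9.38% of all genes). Without culture control 4 the count was 19 (27.3% of all genes), of which 18 had a negative difference (20.4% of all genes) and 1 a positive one (6.92%), so the count depended on that library. Without both culture libraries numbered 4 it was 25 (28.7% of all genes), 24 with a negative difference (21.5%) and 1 with a positive one (7.19%).

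Other genes of replication, taken from a list of 51 that holds none of the 57, were also mostly lower where they passed. Of the 50 measured, 29 fell and 1 rose in culture (median -1.10), and 20 fell and 1 rose in marrow (median -0.55). After centring 17 fell and 3 rose in culture (Nme1, Pold4 and Samhd1), with a median of -0.74, and 16 fell and 1 rose in marrow. Of all genes 32.6% fell in culture and 11.5% in marrow, or 12.7% and 8.92% after centring. Top2a, the topoisomerase that untangles copied strands, fell by 2.78 (SE 0.43) in culture, and Ccna2, the cyclin of S phase, by 2.76 (SE 0.49) in culture and by 1.56 (SE 0.16) in marrow. Chtf18, part of an alternative clamp loader, fell by 2.53 in culture and by 1.61 in marrow. The member of this list that rose in culture was Samhd1, which destroys deoxynucleotides, at 622 ± 87.5 RPM with IL4 and 439 ± 74.7 RPM in controls (SD, n = 4 each; log2 0.51 ± 0.15, adjusted p = 0.0235), and in marrow it fell by 0.61 (SE 0.15, adjusted p = 0.0211; 0.0513 after centring). Its rise in culture had an adjusted p of 0.00709 to 0.0658 when 1 library was left out. In marrow Pold4, a small subunit of polymerase delta, rose (0.88 ± 0.26, adjusted p = 0.0445).

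Of 28 measured regulators of entry into S phase 15 fell and 3 rose in culture, and 9 fell and 2 rose in marrow. After centring 7 fell and the same 3 rose in culture, and 6 fell and the same 2 rose in marrow. Of all genes 32.6% fell and 7.96% rose in culture, and 11.5% fell and 6.70% rose in marrow. After centring 12.7% fell and 14.4% rose in culture, and 8.92% fell and 9.45% rose in marrow. Cdkn1a, the gene of the kinase inhibitor p21, was at 371 ± 127 RPM with IL4 and 214 ± 21 RPM in controls of the culture (SD, n = 4 each; log2 0.73 ± 0.25, adjusted p = 0.0377). That call was lost when any 1 library but IL4 library 4 was left out (adjusted p 0.0546 without control 4, and up to 0.102). In marrow it was at 93.6 ± 22.8 RPM with IL4 and 21 ± 7 RPM in controls (SD, n = 3 each; 2.13 ± 0.29, adjusted p = 0.00131). Myc, a growth-promoting transcription factor gene, also rose in both (1.05 ± 0.24 in culture, 1.17 ± 0.24 in marrow), and Mxi1, a gene of a Myc antagonist, rose in culture (1.30 ± 0.29). Among those that fell in culture were the cyclin D genes Ccnd3 (-2.52 ± 0.35) and Ccnd2 (-2.21 ± 0.33), the inhibitor gene Cdkn2c (-2.82 ± 0.31) and the repressor gene E2f7 (-2.20 ± 0.70, which did not pass after centring, adjusted p = 0.0743). Cdkn2c fell by 2.65 in marrow too (SE 0.36). Of 10 genes of the replication checkpoint 5 fell and 0 rose in culture, among them Chek1, the checkpoint kinase (-1.59 ± 0.55). After centring Timeless alone of the 10 passed in culture, near the 12.7% of all genes that fell. Chek1 then did not pass (limma adjusted p = 0.115), and the median was -0.22, against -0.58 before. Without control 4, 3 of the 10 fell, Chek1, Hus1 and Timeless, near the 33.8% of all genes. By limma 0 passed in marrow (2 had an unadjusted p under 0.05), with a median of -0.39.

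Across the 8 culture libraries the genes most like the mean of the 56, outside the list, were Ccna2 (Pearson r = 0.998), Actb, Bub1b, Foxm1, Top2a, Mtr, Ncapd2, Fcrls, Kif20b and Racgap1 (0.990 to 0.994). These libraries share 2 groups and 1 low control, so the values describe this pattern and carry no test. In marrow Ccna2, Bub1b, Foxm1, Top2a, Ncapd2, Kif20b and Racgap1 fell as well (-1.56 to -0.91), whereas Actb (-0.05), Mtr (-0.03) and Fcrls (1.11) did not pass.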

How the data were processed

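Per the labels' protocols, the 14 RNA libraries were prepared with Illumina's TruSeq kit, and bcl2fastq, TopHat2 2.0.13 and mm10 are named in the submitters' processing notes. How reads were counted, with or without strand, and how genes were filtered is not given in the sources used here. The authors deposited 1 table per experiment with log2 values per gene and library. These equal the log2 of whole reads plus 0.5, shifted by constants per gene and library, for 9440 of 9474 genes (99.6%, largest residual 0.00098 where reads were under 100). The authors also deposited p-values and q-values and a fold change (a linear ratio), which were not used.

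The log2 values were tested as deposited with limma 3.58.1 (R 4.3.3, variance trend, without covariates, with 6 residual degrees of freedom in culture, 4 in marrow and 10 for the difference), two-sided, with Benjamini-Hochberg adjustment over 9474 genes. The planned step from a linear scale was not needed. Fold changes are IL4 minus control. RPM were computed from recovered reads with Python 3.11.15, and the test was checked on simulated data. No 2 replicates were as close as a library deposited again would be (chi-square over its degrees of freedom 1.41 to 6.71). Positions are from GENCODE vM21 and promoters from RefSeq. All per-sample columns were used.

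The genes, the lists (other replication genes, S phase entry, replication checkpoint, division and cell type markers) and the tests were chosen with earlier results of these data known. Genes given per library were, in each role and experiment, the smallest p and the largest change against the majority, plus 15 set by name, Mki67 among them. Alternatives were centring on the library median, quantile normalization, no trend, a filter at 10 mean reads, 2 added reads, a replicate block and leaving out libraries.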

Additional observations from a re-analysis of the deposited data

Results flagged for a closer look

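In 116 groups of 4 culture libraries examined, 12 held a library apart from the other 3 by Dixon's criterion. Chance gives about 1 in 20 for independent groups, but these genes share the same libraries, so the counts cannot be set against it. The lowest library was control 4 for 8 of them: Mcm5 (4.04 on the deposited log2 scale), Pole (0.16), Rpa2 (-0.53), Fen1 (4.38), Rrm1 (2.41), Uhrf1 (1.47), Clspn (1.76) and Mki67 (6.30). IL4 library 1 was the lowest of its group for Rfc2 (4.34) and Rpa3 (-1.72, with 0 reads) and the highest for Gins2 (1.98, with 8 reads against 6, 5 and 5). IL4 library 4 was the highest for Pcna (8.89).

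By limma over the 14 libraries, the IL4 responses in culture and marrow differed for 6 of the 56 genes (10.7%). Of all genes 23.1% passed. The culture response minus the marrow response was -2.38 for E2f2, -1.78 for Mcm10, -1.73 for Clspn, -1.54 for Mcm6, -1.34 for Chaf1a and 1.16 for Pcna. After centring on the library median Mcm10, Clspn and Chaf1a did not pass (limma adjusted p = 0.0898, 0.0799 and 0.0591).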

How the results depend on the processing

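Of all 9474 genes, 12.7% fell in culture after centring and 33.8% without control 4. In culture the count of the 56 genes that fell was 14 after centring and after quantile normalization, and 17 to 43 when 1 library was left out: 43 without control 4, 17 or 18 without any other control, 21 without IL4 library 1 or 2, 23 without IL4 library 3 and 33 without IL4 library 4. The count that rose was 1 after centring, with 2 reads added, under the replicate block, without control 4 and without both libraries numbered 4, and 2 after quantile normalization, with 0 to 1 over the libraries left out in turn. The median log2 fold change was -0.69 after quantile normalization and -1.59 without both libraries numbered 4. In marrow it was -0.54 after centring and -0.56 after quantile normalization, and the count that fell was 21 to 38 under all alternatives run. For the difference of the responses the count was 3 after quantile normalization, 25 without both libraries numbered 4, and 2 to 19 when 1 library was left out (19 without culture control 4, 3 without marrow IL4 library 1, marrow control 1 or marrow control 3, and 2 without marrow IL4 library 2). Of all genes 28.7% passed without both libraries numbered 4, and 27.3% without culture control 4. Replicate numbers did not pair the libraries (correlations of same-numbered deviations -0.07 to 0.04 in culture and 0.01 to 0.09 in marrow), and a replicate block gave 23 lower and 1 higher in culture, 28 lower in marrow and 7 for the difference. After centring and after quantile normalization Orc2, Orc3, Orc4, Orc5, Gins4, Pold3 and E2f1 changed sign in culture (0.06 to 0.27 over both), and Orc3 and Cdt1 in marrow (0.04 to 0.08), none of them called in that experiment. Among the genes given per library, a change of sign in culture was also seen for Dut (-0.06 without IL4 library 3, -0.30 without both numbered 4 and -0.41 to 0.37 over single libraries left out, with -0.41 without control 4), E2f1 (0.16 after centring and 0.06 after quantile normalization) and Pold2 (-0.03 without IL4 library 1, -0.20 without both numbered 4 and -0.11 to 0.40 over single libraries left out, with -0.11 without control 4). The cause of these changes was not tested. Of the values of single genes under an alternative, 269 in culture, 250 in marrow and 86 for the difference kept their direction and their side of the threshold, while 35, 22 and 40 lost the call and 14, 4 and 0 gained one. Depth limits the 15 genes that averaged under 10 reads in culture.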
